A study of Mus musculus with 6 samples.

Results

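The 7 non-coding transcripts described here were chosen by gene symbol and not by any measured value: Neat1 and Malat1, which are retained in the nucleus, and Gas5, Snhg1, Snhg3, Snhg5 and Snhg12, whose introns carry small nucleolar RNAs (snoRNAs). They make up 7 of the 21604 gene symbols counted. RNA was sequenced from 6 libraries of RAW 264.7, a mouse macrophage-like line from a virus-induced tumour, labelled wild type and bone marrow macrophage. In the LPS group, 3 libraries, cells received 100 ng/mL of lipopolysaccharide (LPS), the outer-membrane glycolipid of Gram-negative bacteria that macrophages sense through Toll-like receptors, for 24 h. In the LPS plus PE-CUR group, also 3 libraries, cells received LPS at 100 ng/mL together with PE-CUR at 2 mg/mL for 24 h. The series title speaks of curcumin-loaded Pickering emulsions, which are droplets stabilised by solid particles, and the labels call the treatment PE-CUR. Both groups carry LPS, and no untreated cells, empty emulsion or free curcumin were analysed here, so each comparison is LPS plus PE-CUR over LPS alone. All cells are of a single line, and the labels do not tell whether each replicate was its own culture. The p-values therefore cover the spread among these libraries, which may be technical.

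Neat1 is the RNA scaffold of paraspeckles, nuclear bodies that hold RNA-binding proteins, and only its long form builds them. Malat1 is among the most abundant nuclear RNAs of mammalian cells and gathers in nuclear speckles, where splicing factors are stored. The snoRNA host genes work differently: their introns are trimmed into snoRNAs, which guide the chemical modification of ribosomal and spliceosomal RNA, while the spliced host RNA is exported, bound by ribosomes and often degraded by nonsense-mediated decay (NMD). Host transcripts of this kind commonly start with a tract of pyrimidines, as the mRNAs of ribosomal proteins do. In macrophages, Neat1 and Malat1 are known for links to inflammatory gene expression, and Gas5 was first described as a transcript that accumulates in growth-arrested cells.

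On the mouse build mm10 (RefSeq annotation of GRCm38.p6), Malat1 lies at chr19:5795690-5802672 and Neat1 at chr19:5824708-5845480, both on the minus strand and 22.0 kb apart. Snhg1 lies on the same chromosome at chr19:8723487-8726326, plus strand. Snhg12 at chr4:132308678-132311024, plus strand, and Snhg3 at chr4:132351933-132353686, minus strand, are 40.9 kb apart. Gas5 lies at chr1:161034601-161038539, plus strand, and Snhg5 at chr9:88521052-88522897, minus strand. RefSeq annotates all 7 as long non-coding RNA, with no coding exon and no UTR. Inside the hosts RefSeq places 8 snoRNAs in Gas5, 8 in Snhg1, 4 in Snhg12, 2 in Snhg3 and 2 in Snhg5. The snoRNAs themselves were not analysed here, so every host value is that of the host transcript. The lengths implied by the deposited counts and FPKM values were 20773 bases for Neat1 and 6983 for Malat1, which equal the whole annotated span. For the hosts the implied lengths were 620 for Gas5, 476 for Snhg1, 437 for Snhg3, 1011 for Snhg5 and 606 for Snhg12. These are shorter than the gene. Neat1 has a short and a long form that share their first bases, and a count per gene does not separate them.

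Malat1 and the long form of Neat1 end without an ordinary poly(A) tail. The end of the short form of Neat1 is not shown. The 3′ ends of Malat1 and long Neat1 hold U-rich stretches and an A-rich tract, which fold into a triple helix. Both are shown because a library that selects poly(A) RNA may sample them otherwise than mRNAs. The labels do not say how RNA was selected. These 110 bases come from GENCODE M21 transcripts (GRCm38, minus strand, DNA letters), at chr19:5795982-5796091 for Malat1 and chr19:5824708-5824817 for Neat1, and capitals mark the U-rich stretches and the A-rich tract.
Malat1: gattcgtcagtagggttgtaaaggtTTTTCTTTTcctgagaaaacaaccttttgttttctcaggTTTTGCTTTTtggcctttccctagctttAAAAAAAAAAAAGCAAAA
Neat1: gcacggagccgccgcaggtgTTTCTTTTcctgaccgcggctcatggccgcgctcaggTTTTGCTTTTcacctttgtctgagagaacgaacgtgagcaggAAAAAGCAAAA

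Examples of what the hosts carry are given from the same GENCODE release. Capitals mark box C (TGATGA) and box D (CTGA) in snoRNAs of the box C/D class, which guide methylation of the ribose, and box ACA in the H/ACA class, which guides the conversion of uridine to pseudouridine. Snord47 lies in Gas5 (chr1:161038082-161038158, plus strand), Snord50a in Snhg5 (chr9:88521529-88521600, minus strand), and Snord99 (chr4:132310691-132310764) and Snora61 (chr4:132310240-132310369) in Snhg12 on the plus strand.
Snord47: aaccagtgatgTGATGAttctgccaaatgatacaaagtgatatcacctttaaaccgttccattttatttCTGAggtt
Snord50a: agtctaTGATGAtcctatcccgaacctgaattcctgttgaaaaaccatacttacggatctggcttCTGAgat
Snord99: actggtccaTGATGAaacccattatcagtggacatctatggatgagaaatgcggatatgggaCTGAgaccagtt
Snora61: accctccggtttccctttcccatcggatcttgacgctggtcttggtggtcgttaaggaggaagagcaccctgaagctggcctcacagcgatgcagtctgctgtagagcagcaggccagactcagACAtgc

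The start regions of the hosts and of Malat1 are shown because the hosts moved together in the comparison given below. RefSeq promoter sequences (GRCm38.p6) were matched by symbol for 6 of the 7 genes, and each line gives 60 bases before the annotated start and 50 from it, 5′ to 3′ on the gene's strand. Gas5 has a pair of annotated starts, of which the downstream one is shown. The windows are chr1:161035106-161035215 for Gas5, chr19:8723427-8723536 for Snhg1, chr4:132353637-132353746 for Snhg3, chr9:88522848-88522957 for Snhg5, chr4:132308618-132308727 for Snhg12 and chr19:5802623-5802732 for Malat1. Capitals mark an A and T stretch opening with TATA between 45 and 16 bases before the start, and a run of C followed by at least 4 C or T that begins between 10 bases before and 20 bases after the start, both searched on the gene's strand.
Gas5: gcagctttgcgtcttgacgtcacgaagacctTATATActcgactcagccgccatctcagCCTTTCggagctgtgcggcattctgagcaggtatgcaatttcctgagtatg
Snhg1: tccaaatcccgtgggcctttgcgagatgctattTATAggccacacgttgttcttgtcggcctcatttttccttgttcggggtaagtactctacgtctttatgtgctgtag
Snhg3: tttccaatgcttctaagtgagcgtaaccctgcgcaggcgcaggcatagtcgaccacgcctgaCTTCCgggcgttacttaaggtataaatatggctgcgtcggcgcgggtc
Snhg5: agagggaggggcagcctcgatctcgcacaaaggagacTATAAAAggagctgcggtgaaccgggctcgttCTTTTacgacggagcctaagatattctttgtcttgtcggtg
Snhg12: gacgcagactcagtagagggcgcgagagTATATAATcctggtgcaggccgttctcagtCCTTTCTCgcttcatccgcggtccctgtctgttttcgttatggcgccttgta
Malat1: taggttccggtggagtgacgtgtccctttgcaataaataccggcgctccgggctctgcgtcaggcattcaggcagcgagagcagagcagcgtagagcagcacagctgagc

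TATA was found in 4 of the 5 hosts (Gas5, Snhg1, Snhg5 and Snhg12), and in 6.72% of 32851 RefSeq promoters. Gas5 is counted here and below through its downstream start, and its upstream start, at the gene's first base, held none of the motifs searched. Hosts and Malat1 are thus counted per gene, by any annotated start, while the percentages are per promoter. The pyrimidine run was found in 4 of the 5 hosts (Gas5, Snhg3, Snhg5 and Snhg12), and in 35.8% of all promoters. Both occurred together in Gas5, Snhg5 and Snhg12, and in 2.51% of all promoters. Malat1 had neither in these windows. In the whole 300 bases on both strands, TGACG, the shared letters of cAMP response elements, was found in Malat1, Gas5 and Snhg12 and in 20.8% of all promoters. TGACNNNGC, the core of antioxidant response elements, which shares its first letters with TGACG, was found in 0 of the 6 genes and in 12.4% of all promoters. Among the 13212 promoters of genes tested below, TATA was found in 3.63%, the pyrimidine run in 37.1% and both in 1.5%. There, TGACG was found in 30.3% and TGACNNNGC in 14.3%. These motifs were chosen after the sequences had been read, and a match describes letters only.

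Total counts were 28530750 to 35276533 per library, and 1 CPM (the count scaled to a common library total by TMM factors) was 27.7 to 36.2 counts, so that the least abundant of the 7 transcripts rested on at least 181 counts in every library. Macrophage markers fixed for the check (12 genes, among them Csf1r, Cd68 and Lyz2) summed to 12160 to 12580 CPM in LPS and 10510 to 11150 CPM in LPS plus PE-CUR. The sum covers moves in both directions. By the edgeR test described below, 3 of the 12 were called higher, 4 lower and 5 not called (58.3% called, beside 63.4% of all genes tested). Adgre1 fell from a mean of 85.2 to 26.8 CPM and Lyz2 from 6421 to 4836 CPM, while Csf1r rose from 865 to 1201 CPM. The 10 liver markers summed to 54.5 to 72.1 CPM in LPS, to 0.154 and 0.0589 CPM in LPS plus PE-CUR replicates 1 and 2, and to 87.6 CPM in LPS plus PE-CUR replicate 3. Stromal and epithelial markers summed to 15.4 CPM in LPS plus PE-CUR replicate 2, through collagen genes, and to at most 3.42 CPM elsewhere. T and B cell markers stayed at or under 1.23 CPM and erythroid markers at or under 2.25 CPM in every library. The 13 protein-coding genes of the mitochondrial genome took 2.98% to 3.46% of the counts. Leaving out LPS plus PE-CUR replicate 2 or 3 ended none of the 6 calls given below, and the part of the liver and stromal transcripts in the results was otherwise not tested. Since fewer producing cells and less RNA per cell cannot be told apart in bulk samples, all changes below are of the transcript's share of the counts.

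In LPS plus PE-CUR, Neat1 was lower and the 5 snoRNA hosts were higher than in LPS alone, while Malat1 did not pass the test. Neat1 fell 2.59-fold, Snhg3 rose 2.21-fold, Snhg5 1.90-fold, Snhg1 1.41-fold, Snhg12 1.31-fold and Gas5 1.28-fold. By edgeR's quasi-likelihood test with Benjamini-Hochberg adjustment over all 13014 genes tested, at a threshold of 0.05, 6 of the 7 transcripts were called. All 7 passed the filter on low counts. Among all genes tested 63.4% were called, 30.8% as higher and 32.7% as lower, so a single call is common in this comparison. The groups did not overlap for 6 of the 7 transcripts, and for 69.0% of all genes tested.

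**Figure D1:**
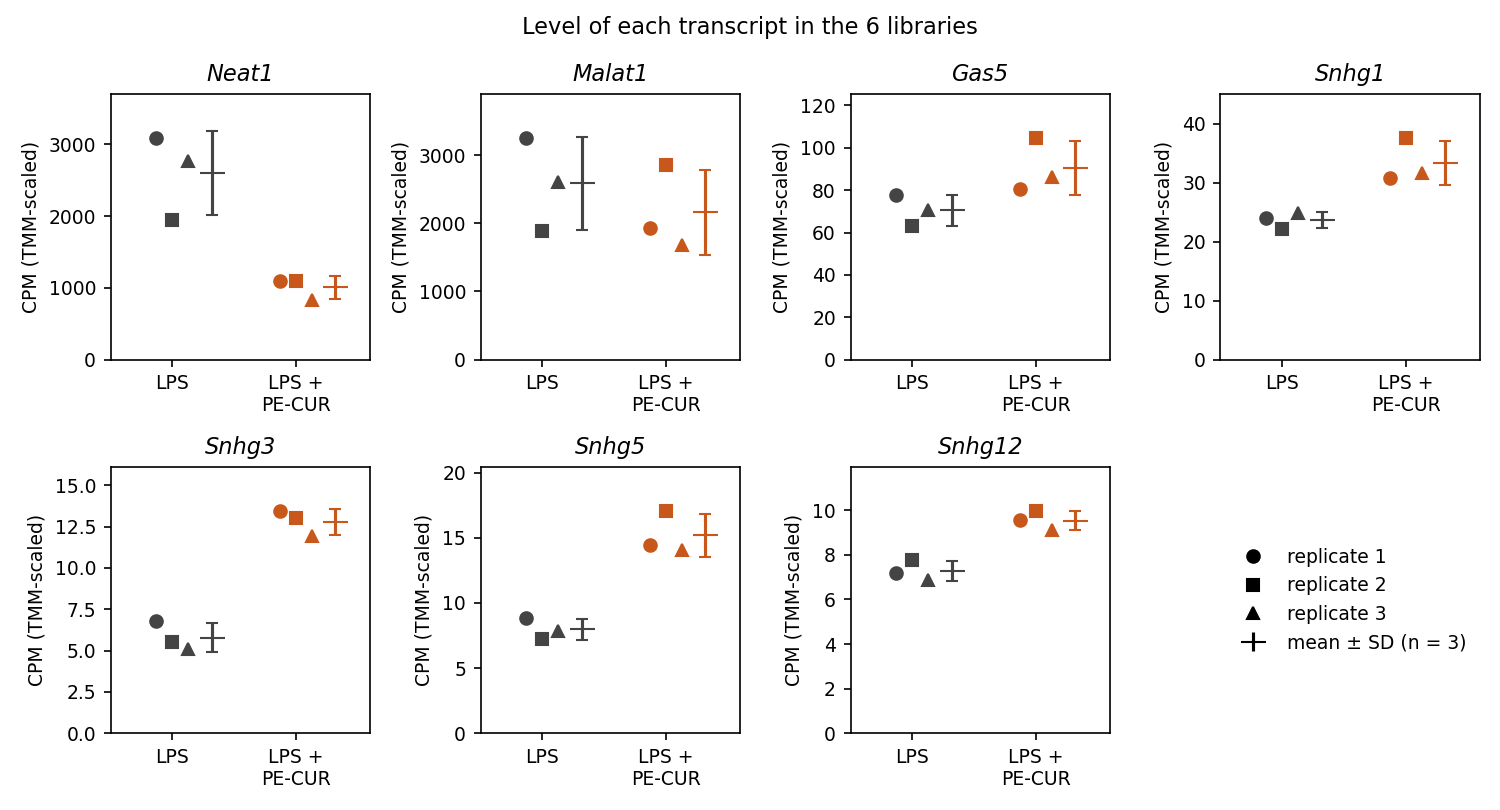
CPM scaled by TMM factors (vertical axis, from 0) of each of the 7 transcripts, with 1 point per library and the mean ± SD of 3 libraries beside each group. The groups are apart for Neat1 and for the 5 snoRNA hosts and overlap for Malat1.

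Neat1 stood at 3090, 1952 and 2770 CPM in LPS replicates 1 to 3. With PE-CUR, replicates 1 to 3, it stood at 1095, 1098 and 827 CPM. Every LPS plus PE-CUR library was lower than every LPS library, and LPS replicate 2 was the lowest of its group. The means were 2604 ± 587 CPM and 1007 ± 156 CPM (SD, n = 3), a log2 fold change of -1.37 (SE 0.22, edgeR adjusted p = 0.00310). Across the alternatives tried the log2 fold change stayed between -1.501 and -1.19 and was called in each. By counts Neat1 ranked 19 among all genes in LPS and 80 in LPS plus PE-CUR.

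Malat1, the other abundant nuclear RNA, was measured at 3253, 1894 and 2606 CPM in LPS replicates 1 to 3 and at 1935, 2857 and 1683 CPM in LPS plus PE-CUR replicates 1 to 3. The groups overlapped: LPS plus PE-CUR replicate 2 was above LPS replicates 2 and 3. Its spread was the widest of the 7, with a coefficient of variation of 26.3% in LPS and 28.6% in LPS plus PE-CUR, against 22.6% and 15.5% for Neat1 and at most 15% in either group for the hosts. Malat1 averaged 2585 ± 680 and 2159 ± 618 CPM (SD, n = 3), and its log2 fold change of -0.26 (SE 0.30, edgeR adjusted p = 0.503) was smaller than its error. Left out in turn, single libraries moved it from -0.47 without LPS plus PE-CUR replicate 2 to -0.02 without LPS replicate 1, and none of the alternatives called it.

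Within the LPS group, Neat1 and Malat1 were both highest in replicate 1 and lowest in replicate 2, and their counts kept nearly the same ratio. The ratio of Neat1 to Malat1 counts was 0.950, 1.03 and 1.06 in the LPS libraries, replicates 1 to 3. With PE-CUR it was 0.566, 0.384 and 0.491. All 3 LPS plus PE-CUR ratios lay below all 3 LPS ratios. On the log2 scale the mean ratio was 0.02 ± 0.08 in LPS and -1.08 ± 0.28 in LPS plus PE-CUR (SD, n = 3), a difference of -1.10. The exact two-sided permutation test gave p = 0.1, which is the smallest that 3 against 3 libraries allow, and 0.1 after Benjamini-Hochberg adjustment over the 3 ratios tested. The difference lay between -1.22 and -0.94 when single libraries were left out. The ratio does not depend on how the libraries are scaled, and it shows unequal change of the pair, not which of them moved.

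**Figure D2:**
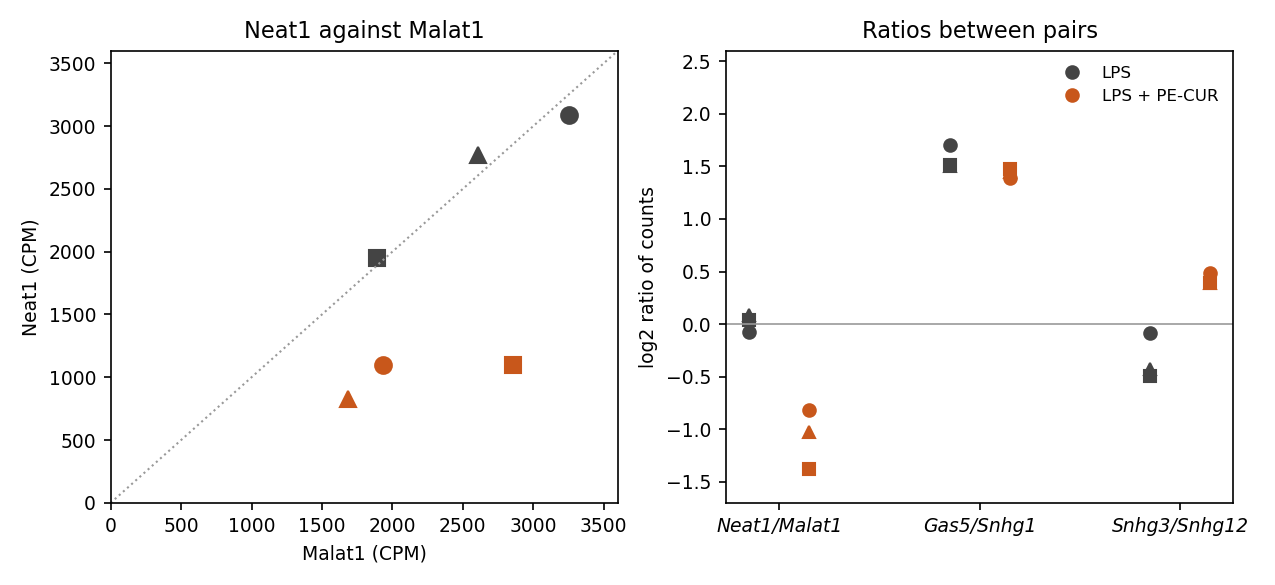
Left, Neat1 against Malat1 in CPM, 1 point per library, with the dotted line at equal CPM; right, log2 ratio of counts for 3 pairs of transcripts in each library. Circles, squares and triangles are replicates 1, 2 and 3, dark for LPS and orange for LPS plus PE-CUR. The LPS libraries lie along the line from 1894 to 3253 CPM of Malat1, and the LPS plus PE-CUR libraries lie below it.

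Among the snoRNA hosts, Snhg3 changed most. This transcript carries both Snora73 genes, whose RNAs take part in the processing of ribosomal RNA. Snhg3 was at 6.76, 5.51 and 5.09 CPM in LPS replicates 1 to 3 and at 13.42, 13.02 and 11.92 CPM in LPS plus PE-CUR replicates 1 to 3; the groups were far apart. The mean rose from 5.79 ± 0.868 to 12.8 ± 0.776 CPM (SD, n = 3; edgeR log2 fold change 1.15 with SE 0.13, adjusted p = 2.43e-05). In GENCODE M21, Snhg3 overlaps on the same strand the locus of Rcc1, the exchange factor of the GTPase Ran, and reads of shared exons may count for either gene. Rcc1 rose from 49.0 ± 2.53 to 99.4 ± 3.67 CPM (edgeR log2 fold change 1.02, adjusted p = 3.46e-07), so the value of Snhg3 is uncertain as far as such reads enter it.

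Snhg5, host of Snord50a and Snord50b, stood at 8.81, 7.22 and 7.88 CPM in LPS replicates 1 to 3. With PE-CUR, replicates 1 to 3, it stood at 14.44, 17.02 and 14.05 CPM, again with no overlap. The mean rose from 7.97 ± 0.802 to 15.2 ± 1.62 CPM (edgeR log2 fold change 0.93 with SE 0.12, adjusted p = 5.64e-05). Of the 7 loci it is among those with no other tested gene overlapping it in either annotation.

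Snhg1, which hosts Snord22 and 7 other snoRNAs, was measured at 24.0, 22.2 and 24.8 CPM in the LPS libraries and at 30.8, 37.6 and 31.6 CPM in those with PE-CUR. All 3 libraries with PE-CUR were higher. The mean rose from 23.6 ± 1.34 to 33.3 ± 3.73 CPM (edgeR log2 fold change 0.50 with SE 0.09, adjusted p = 7.08e-04).

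Snhg12, which hosts snoRNAs of both classes, showed a narrow spread in each group. It was at 7.19, 7.77 and 6.86 CPM in LPS and at 9.57, 9.95 and 9.10 CPM in LPS plus PE-CUR, replicates 1 to 3, so that the groups were apart by more than the range within either. The mean rose from 7.27 ± 0.462 to 9.54 ± 0.426 CPM (edgeR log2 fold change 0.39 with SE 0.12, adjusted p = 0.0122).

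Gas5, the most abundant host, changed least. It was at 77.9, 63.2 and 70.4 CPM in LPS replicates 1 to 3 and at 80.4, 105 and 86.4 CPM in LPS plus PE-CUR replicates 1 to 3. The highest LPS and the lowest LPS plus PE-CUR library were close, at 77.9 and 80.4 CPM. The mean rose from 70.5 ± 7.37 to 90.5 ± 12.6 CPM (edgeR log2 fold change 0.36 with SE 0.11, adjusted p = 0.0193). This call ended in 2 of 17 alternatives, with the replicate number as a block (edgeR adjusted p = 0.0654) and in limma on log2(FPKM + 1) without a filter (limma adjusted p = 0.0821). In RefSeq the gene shares bases with the opposite strand, where Zbtb37 lies, and whether counting used strand is not given in the sources used here. Reads from both strands cannot be told apart without it. Zbtb37 stood at 23.8 ± 3.73 and 28.5 ± 3.83 CPM (edgeR adjusted p = 0.115).

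The hosts did not change by the same amount. Counts of Snhg3 over Snhg12, both on chromosome 4, stood at 0.940, 0.710 and 0.742 in LPS replicates 1 to 3. With PE-CUR they stood at 1.40, 1.31 and 1.31. All 3 ratios with PE-CUR were above all 3 ratios in LPS. The log2 ratio differed by 0.76 between the groups (exact two-sided permutation p = 0.1, the smallest possible, and 0.1 adjusted over the 3 ratios). Gas5 over Snhg1 was 3.25, 2.85 and 2.84 in LPS and 2.62, 2.78 and 2.73 in LPS plus PE-CUR, a log2 difference of -0.14 (exact two-sided permutation p = 0.1, adjusted 0.1), about the size of the SD of 0.11 in the LPS group.

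Levels of different genes are compared per length, by the deposited FPKM (the count scaled by gene length and library total). In LPS the order was Malat1 at 377 ± 99.5, Neat1 at 128 ± 29.1, Gas5 at 116 ± 12.3, Snhg1 at 50.6 ± 3.12, Snhg3 at 13.5 ± 1.99, Snhg12 at 12.2 ± 0.714 and Snhg5 at 8.03 ± 0.814 FPKM (SD, n = 3). Neighbours in that order whose libraries overlapped were Neat1 with Gas5 and Snhg3 with Snhg12. In LPS plus PE-CUR the order was Malat1 at 303 ± 82.7, Gas5 at 143 ± 17.3, Snhg1 at 68.6 ± 6.56, Neat1 at 47.6 ± 7.82, Snhg3 at 28.7 ± 2.24, Snhg12 at 15.4 ± 0.750 and Snhg5 at 14.7 ± 1.40 FPKM. There, only Snhg12 and Snhg5 overlapped. Malat1 was first in all 6 libraries. Neat1 was above Gas5 in LPS replicates 1 and 3 and below it in LPS replicate 2, at 95.3 against 103 FPKM. In each LPS plus PE-CUR library Neat1 was below both Gas5 and Snhg1.

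**Figure D3:**
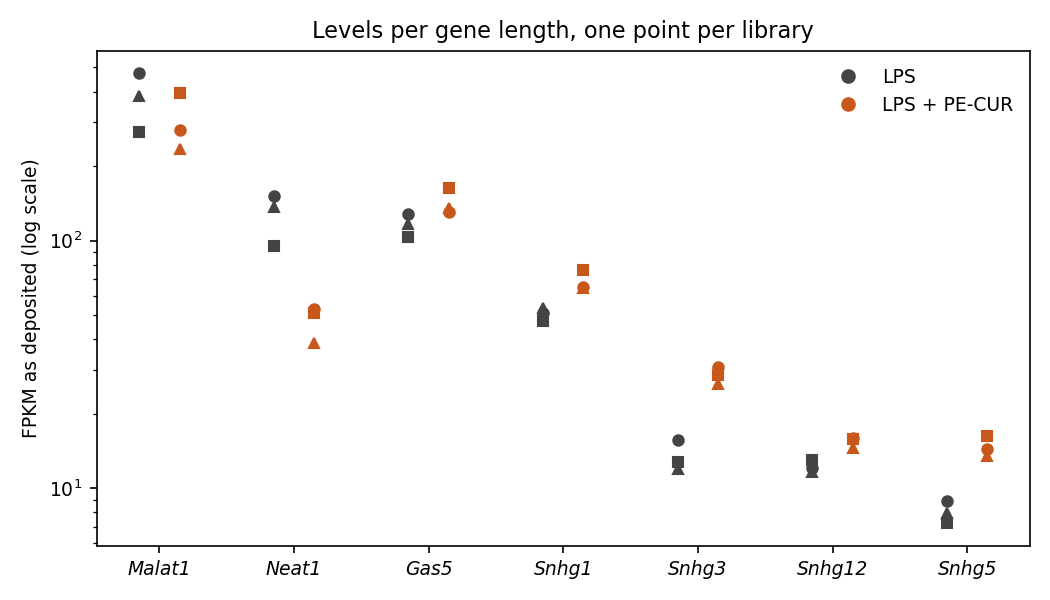
FPKM as deposited (logarithmic vertical axis) of the 7 transcripts, ordered by their mean in LPS, with 1 point per library in LPS (dark) and LPS plus PE-CUR (orange). Neat1 moves from beside Gas5 to below Snhg1, at 38.6 to 53.1 FPKM in LPS plus PE-CUR.

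Other snoRNA hosts outside the 7 were looked at as a list of 15, of which 12 had enough counts for the test. Of these 7 rose, 1 fell and 4 did not pass, with a median log2 fold change of 0.54, beside -0.03 for all genes tested. Zfas1 rose from 9.73 ± 0.603 to 19.02 ± 0.457 CPM (edgeR adjusted p = 5.88e-06), Snhg16 from 5.21 ± 0.391 to 10.2 ± 0.759 CPM (edgeR adjusted p = 5.59e-05) and Snhg17 from 15.2 ± 0.734 to 22.8 ± 0.954 CPM (edgeR adjusted p = 9.24e-05). Snhg18 went the other way, from 3.22 ± 0.544 to 1.51 ± 0.199 CPM (edgeR adjusted p = 0.00142). The share called among these hosts, 66.7%, was near the 63.4% of all genes, whereas 58.3% were called as higher beside 30.8% of all genes.

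Of 30 other long non-coding RNAs listed, 18 were tested: 3 rose, 9 fell and 6 did not pass (median log2 fold change -0.20). Calls covered 66.7% of those tested, near the 63.4% of all genes tested. Higher calls made up 16.7% and lower calls 50%, beside 30.8% and 32.7% of all genes tested. Mir22hg, the host of miR-22, fell from 40.4 ± 4.23 to 18.2 ± 2.04 CPM (edgeR adjusted p = 3.45e-06), Dleu2, the host of miR-15a and miR-16-1, from 5.74 ± 0.412 to 1.71 ± 0.176 CPM (edgeR adjusted p = 7.31e-06), and Morrbid, which limits expression of the death gene Bcl2l11 in short-lived myeloid cells, from 4.08 ± 0.291 to 1.202 ± 0.291 CPM (edgeR adjusted p = 5.38e-05). Mir17hg, the host of the miR-17 to miR-92 cluster, rose from 6.75 ± 1.23 to 12.5 ± 2.61 CPM (edgeR adjusted p = 0.00135), and Pvt1, a neighbour of Myc, from 11.3 ± 0.650 to 16.2 ± 3.33 CPM (edgeR adjusted p = 0.00879).

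**Figure D4:**
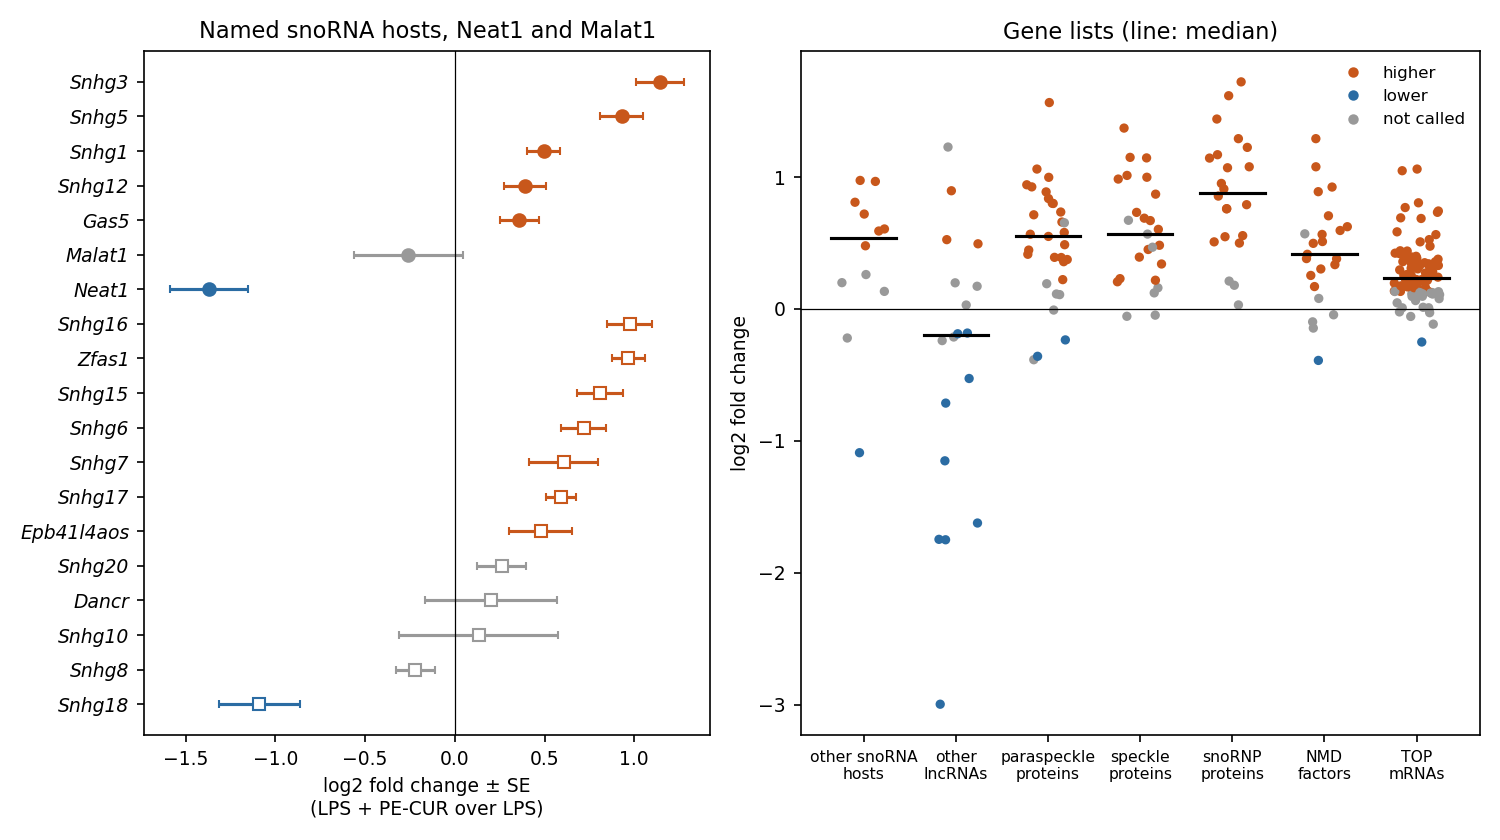
Left, log2 fold change of LPS plus PE-CUR over LPS with its SE for the 7 transcripts (filled circles) and the other tested snoRNA hosts (open squares); right, log2 fold changes of the tested genes of 7 lists, with a line at each median. Orange marks genes called higher, blue genes called lower and grey genes not called at an adjusted p of 0.05; the highest median, 0.88, is that of snoRNP proteins.

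Genes listed for proteins of paraspeckles and nuclear speckles were mostly higher in LPS plus PE-CUR. Among all genes tested 63.4% were called, 30.8% as higher. For Neat1, 31 genes of paraspeckle proteins were tested, of which 23 rose, 2 fell and 6 did not pass (median log2 fold change 0.55). Of these 80.6% were called, 74.2% as higher. Sfpq and Nono, which Neat1 needs for its stability, stood at 145 to 163 and 178 to 196 CPM in LPS, and at 266 to 336 and 273 to 279 CPM in LPS plus PE-CUR, both without overlap and opposite in direction to Neat1 itself (edgeR adjusted p = 5.88e-06 and 6.63e-06). Ewsr1 rose from 159 ± 5.86 to 302 ± 10.8 CPM (edgeR adjusted p = 2.78e-07), Hnrnpul1 from 153 ± 6.62 to 274 ± 10.4 CPM and Tardbp from 192 ± 12.7 to 369 ± 22.3 CPM. Ss18l1 and Aspscr1 were the members called lower, at 12.7 ± 0.792 and 9.92 ± 0.685 CPM and at 32.1 ± 3.74 and 27.2 ± 1.42 CPM, but these calls ended in 3 and 11 of the 17 alternatives. For Malat1, 25 genes of nuclear speckle proteins were tested, and 18 rose, 0 fell and 7 did not pass (median 0.57, 72% called, all as higher). The splicing factor genes Srsf7 and Srsf4 rose from 51.6 ± 3.04 to 134 ± 8.90 CPM and from 35.2 ± 1.72 to 77.9 ± 1.79 CPM, and Ddx39b, an export helicase, from 138 ± 3.89 to 273 ± 8.75 CPM (edgeR adjusted p = 1.72e-07).

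For the snoRNA hosts, 22 genes of snoRNP core and assembly proteins were tested, and 19 rose, 0 fell and 3 did not pass (median 0.88). That is 86.4% called, all as higher, beside 63.4% called and 30.8% higher among all genes tested. Nolc1, a chaperone of snoRNPs in the nucleolus, rose from 114 ± 10.4 to 351 ± 3.85 CPM (edgeR adjusted p = 4.58e-08), Nop56, of the box C/D core, from 118 ± 7.66 to 320 ± 9.45 CPM (edgeR adjusted p = 4.78e-08), and Ruvbl2, of the assembly complex, from 52.1 ± 1.83 to 128 ± 7.15 CPM (edgeR adjusted p = 9.82e-08). Of 23 NMD factors 17 rose, 1 fell and 5 did not pass (median 0.42, 78.3% called), Ruvbl1 and Ruvbl2 being in both lists. Eif4a3, of the exon junction complex, rose from 74.2 ± 3.15 to 141 ± 3.08 CPM and Ruvbl1 from 40.5 ± 2.91 to 85.4 ± 2.73 CPM, while Pnrc2, a decapping adaptor, fell from 82.4 ± 5.37 to 62.9 ± 7.84 CPM (edgeR adjusted p = 0.00382). Of 94 mRNAs that start with a pyrimidine tract, mostly those of ribosomal proteins, 67 rose, 1 fell and 26 did not pass (median 0.24, 72.3% called). Rpsa rose from 1116 ± 14.3 to 1901 ± 70.5 CPM, Rpl7a from 444 ± 3.97 to 715 ± 15.9 CPM and the elongation factor gene Eef1d from 96.2 ± 3.81 to 168 ± 3.61 CPM (edgeR adjusted p = 6.41e-07), while Tpt1 fell from 1722 ± 51.7 to 1448 ± 8.22 CPM. Ribosomal protein genes have many near-identical pseudogenes, so their counts are uncertain where reads could be split.

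Within 100 kb of the 7 transcripts, 42 other genes were tested, of which 14 rose, 6 fell and 22 did not pass, so that 47.6% were called, beside 63.4% of all genes. Around Neat1, 3 of 12 rose and 0 fell. Its nearest tested neighbours were Malat1 and Frmd8, and Frmd8 stood at 43.5 ± 1.30 CPM in LPS against 42.2 ± 3.56 CPM with PE-CUR (log2 fold change -0.04, edgeR adjusted p = 0.641). Snhg1 starts 118 bases from Slc3a2, the heavy chain of amino acid transporters, which was at 280 ± 9.91 and 252 ± 1.59 CPM and called lower by edgeR (log2 fold change -0.15, adjusted p = 0.0262). The call ended in 11 of 17 alternatives. On the other side of Snhg1, Wdr74, a ribosome assembly factor, rose from 25.05 ± 1.03 to 34.6 ± 1.99 CPM (edgeR adjusted p = 2.55e-04). Syncrip, the nearest gene below Snhg5, rose from 180 ± 8.46 to 314 ± 43.4 CPM (edgeR adjusted p = 7.14e-05), and Zfp949, the nearest above it, fell from 9.02 ± 0.723 to 6.09 ± 1.01 CPM (edgeR adjusted p = 0.00630). Phactr4, above Snhg3, stood at 37.7 ± 0.440 and 37.3 ± 2.19 CPM (edgeR adjusted p = 0.876). Beside Snhg12, Trnau1ap was at 14.5 ± 0.504 and 17.3 ± 1.06 CPM (called higher, edgeR adjusted p = 0.0243) and Rab42 at 0.831 ± 0.113 and 0.421 ± 0.0556 CPM (called lower, edgeR adjusted p = 0.0265), and these calls ended in 5 and 9 of 17 alternatives. Beside Gas5, Cenpl, a centromere gene, rose from 13.1 ± 1.61 to 24.4 ± 1.52 CPM (edgeR adjusted p = 2.40e-05), and Serpinc1 was at 2.05 ± 0.492 and 2.02 ± 0.947 CPM (edgeR adjusted p = 0.939).

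**Figure D5:**
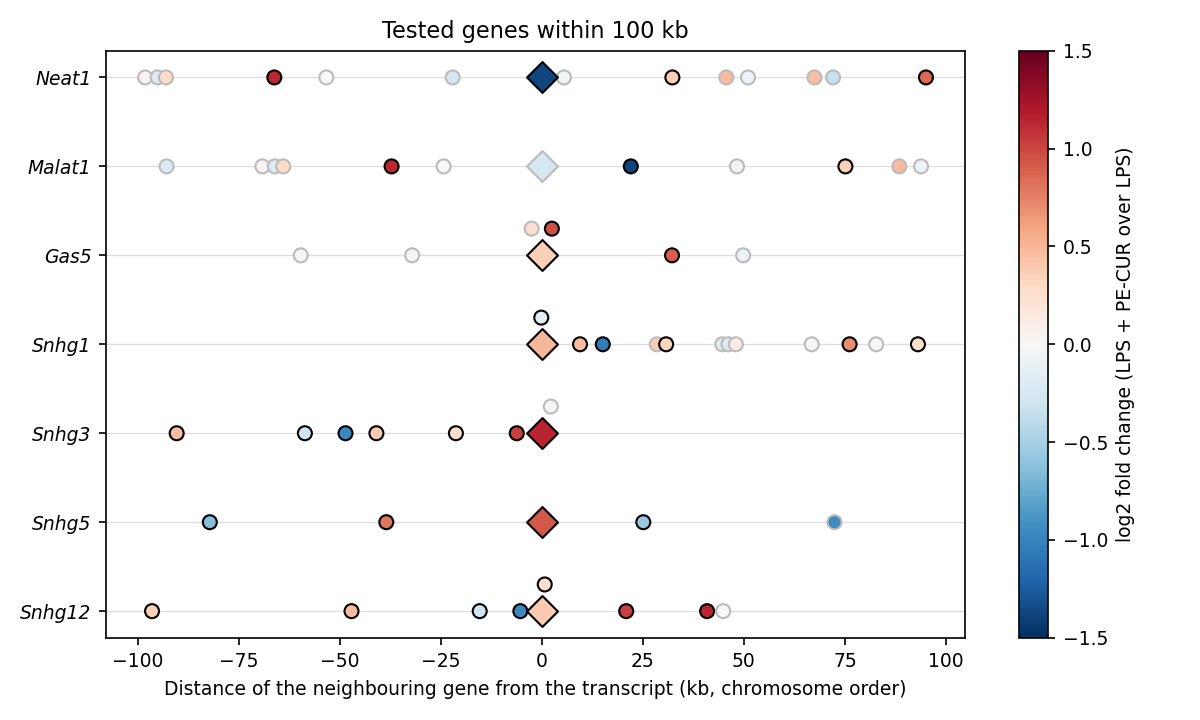
Tested genes within 100 kb of each transcript (diamonds), by distance in kb along the chromosome and coloured by log2 fold change of LPS plus PE-CUR over LPS; black outlines mark genes called at an adjusted p of 0.05. Genes overlapping a transcript or within 3 kb of it are drawn just above its row, overlapping ones moved sideways by 2.5 kb for visibility. Apart from Neat1, 0 genes in the rows of Neat1 and Malat1 were called lower.

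As a description of likeness, Pearson's r of log2 CPM over the 6 libraries was computed against 9791 genes averaging 5 CPM or more, and the closest pair of genes is given for each transcript. The libraries fall into the groups compared, and r then mostly follows the group. For Neat1 they were 4930581F22Rik (r = 0.999) and Mblac2 (r = 0.997), for Snhg3 Stil (r = 0.999) and Tasp1 (r = 0.998), and for Snhg5 Snhg6, another snoRNA host (r = 0.999), and G2e3 (r = 0.998). Snhg1 was closest to Syt8 (r = 0.996) and 9930014A18Rik (r = 0.994), Snhg12 to A430005L14Rik (r = 0.997) and Fancc (r = 0.994), and Gas5 to Bbs12 (r = 0.998) and the NMD factor Upf3b (r = 0.998). Malat1, which did not follow the groups, was closest to Uvssa (r = 0.994) and Aim2 (r = 0.989). Uvssa stood at 33.5, 23.6 and 28.4 CPM in LPS replicates 1 to 3 and at 23.0, 31.7 and 20.8 CPM in LPS plus PE-CUR replicates 1 to 3, with the same order of libraries as Malat1 within each group.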

How the data were processed

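RNA sequencing of 6 libraries was analysed from the authors' deposited files. TRIzol extraction of total RNA preceded a VAHTS Universal V6 library kit, per the labels' protocols. The build mm10 and the tools HTSeq, fastp, DESeq2 and SAMtools are named per the submitters' processing notes; for versions, aligner, annotation and strand setting the status is: not given in the sources used here. The authors deposited whole-number counts per gene symbol and FPKM values, which equal the counts divided by 1 length per gene and the library total in 100% of 105337 values above 0 (relative tolerance 1e-04).

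Counts were tested in R 4.3.3 with edgeR 4.0.16 (filterByExpr, which left 13014 of 21604 genes, TMM factors of 0.964 to 1.03, robust quasi-likelihood fit with the group as its term, two-sided, Benjamini-Hochberg adjustment over all genes tested, threshold 0.05). The script was tested on simulated data. SE is the log2 fold change over the root of F. Alternatives used median-ratio factors, library size alone, other filters, DESeq2 1.42.0, limma 3.58.1 (voom, and log2 FPKM with pseudocounts of 1 and 0.1), the replicate block, and each library left out. Coordinates are RefSeq GRCm38.p6 or GENCODE M21, both of the build mm10. Named genes outside the 7 are, per list, up to 3 called genes of smallest p on the list's majority side and 2 on its minority side, the nearest tested and the overlapping genes, and the closest by correlation (some of these are not reported here); Sfpq and Nono were added for their role after their values were seen. The transcripts, lists and rules were chosen with earlier results of these data known.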

Additional observations from a re-analysis of the deposited data

How the results depend on the processing

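Under 17 alternatives, Neat1 stayed called lower and Snhg1, Snhg3, Snhg5 and Snhg12 stayed called higher, and Malat1 was called in none. Gas5 lost its call with the replicate number as a block (log2 fold change 0.36, edgeR adjusted p = 0.0654) and in limma on log2(FPKM + 1) without a filter (0.30, limma adjusted p = 0.0821); the cause was not tested. Deviations from the group mean of same-numbered libraries correlated at -0.102, -0.178 and -0.048, and those of differently numbered libraries at -0.052 to 0.169. With 3 libraries per group such values cannot decide whether the replicate numbers pair the libraries. The block moved the calls over all genes from 4004 higher and 4252 lower to 3708 and 3953. With single libraries left out, the log2 fold change of Neat1 ranged from -1.501 to -1.19, Snhg3 from 1.10 to 1.31, Snhg5 from 0.88 to 1.04, Snhg1 from 0.44 to 0.58, Snhg12 from 0.39 to 0.48 and Gas5 from 0.29 to 0.47. Applying the same alternatives to the lists and the other named genes was decided after the data were seen. In the lists, counts called higher were 6 to 7 for other snoRNA hosts, 1 to 4 for other long non-coding RNAs (3 as reported and 1 in limma on log2(FPKM + 1) without a filter), 20 to 26 for paraspeckle proteins, 15 to 20 for speckle proteins, 19 in each for snoRNP proteins, 14 to 18 for NMD factors and 53 to 79 for mRNAs with a pyrimidine tract. Of 1066 values for 63 other named genes, 62 lost a call, 9 gained one and 0 called values changed sign. Libraries hold about 30 counts per CPM, which limits Snhg3 and Snhg12 most.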

Other observations

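Other transcripts shared with Malat1 the highest and lowest LPS library and the highest LPS plus PE-CUR library, and they were picked after their values were seen. In LPS plus PE-CUR the lowest library was replicate 1 for these genes and replicate 3 for Malat1. Kcnq1ot1, a long nuclear antisense RNA of an imprinted locus, stood at 3.41, 1.04 and 1.35 CPM in LPS replicates 1 to 3 and at 1.94, 7.60 and 3.97 CPM in LPS plus PE-CUR replicates 1 to 3. Thoc2, of the mRNA export complex, stood at 101, 52.1 and 69.1 CPM and at 75.4, 163 and 91.2 CPM. Smg1, the kinase of NMD, stood at 277, 174 and 224 CPM and at 141, 286 and 184 CPM, and Upf2, another NMD factor, at 52.7, 32.3 and 38.7 CPM and at 27.5, 55.0 and 32.9 CPM. In each of these 4 genes LPS replicate 1 was the highest and replicate 2 the lowest of the LPS group, LPS plus PE-CUR replicate 2 was the highest of its own group, and the test did not call a difference between the groups (edgeR adjusted p from 0.181 to 0.827).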
